A study of Sparus aurata with 8 samples.

Results

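Toll-like receptor (TLR) transcripts were followed in the male germ line of the gilthead seabream (Sparus aurata). All features of the count table that were typed as protein_coding and whose product name contained Toll-like receptor were taken, which gave 13 of the 31501 protein_coding features and of 197399 features in all. By name they comprised 2 TLR1 features, 1 TLR2, 1 TLR2 type-1, 1 TLR2 type-2, 1 each of TLR3, TLR5, TLR6 and TLR9, and 4 TLR13 features. The names are product names from the annotation and were not checked against sequence here.

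SPZ_EJ are ejaculated spermatozoa, taken by gentle pressure on the abdomen of adult captive males. HGC are haploid germ cells, that is secondary spermatocytes and spermatids, separated from dissociated testis by fluorescence-activated sorting after nucleic acid staining. Both were collected in the natural reproductive season, with no treatment in either group, and each of the 4 SPZ_EJ and 4 HGC libraries was made from a pool of 3 males, so values describe pools and not single fish. Collagenase dissociation, staining and sorting are described for HGC only, and the methods give a lower RNA integrity for SPZ_EJ than for HGC. This handling, RNA integrity and cell type therefore cannot be told apart in any comparison below. In such bulk libraries, fewer cells of a type and less RNA per cell cannot be told apart either.

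TLRs are membrane receptors of innate immunity that bind molecules of microbes or of damaged cells through leucine-rich repeats and signal through an intracellular TIR domain. In mammals TLR1 and TLR6 each pair with TLR2 on the cell surface and bind bacterial lipoproteins. Also in mammals, TLR5 binds flagellin, and TLR3, TLR9 and mouse TLR13 sit in endosomes and bind nucleic acids. The TIR domain recruits adaptors, foremost MyD88, which lead through kinases and ubiquitin ligases to NF-kB and to interferon regulatory factors. In mammals, TLRs have been described on leukocytes and also on spermatozoa.

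Each SPZ_EJ library held 15395220 to 17886675 counts and each HGC library 19865716 to 30645027. TLR features took 2736 to 10089 of these counts per SPZ_EJ library and 14858 to 21245 per HGC library. Levels are counts scaled to the library (CPM, after TMM scaling), given per library or as mean ± SD of 4 libraries. The adjusted p given throughout is that of edgeR's quasi-likelihood test of SPZ_EJ against HGC, Benjamini-Hochberg adjusted over the 21375 features that passed a filter on low counts. Calls needed an adjusted p under 0.01 with a log2 fold change beyond 1 in either direction, and positive values stand for more RNA in SPZ_EJ. Counts are not per transcript length, so levels are not ranked between different genes.

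The family was divided. Of the 13 features, 7 were called higher in SPZ_EJ, 1 was called lower, 2 were tested and not called, and 3 had too few counts for the test. Among all tested protein_coding features, 23.9% were called higher and 31.9% lower in SPZ_EJ. When libraries were scaled by library size only, the split over all protein_coding features turned to 4659 higher and 3436 lower, against 3659 and 4881 with TMM, while the TLR calls did not change. The median log2 fold change was 4.56 over the 10 tested TLR features and -0.29 over the 15302 tested protein_coding features. These counts describe the family only, because 6 of the 7 features called higher had fewer than 10 counts in at least 2 HGC libraries and would not have passed the filter on their HGC counts, TLR2 type-2 being the exception. In 7 of the 10 tested features, and in the untested Saurata1B029709, every SPZ_EJ library lay above every HGC library, against 27.6% of the tested protein_coding features, and in 1 tested feature every SPZ_EJ library lay below every HGC library, against 38%.

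**Figure D1:**
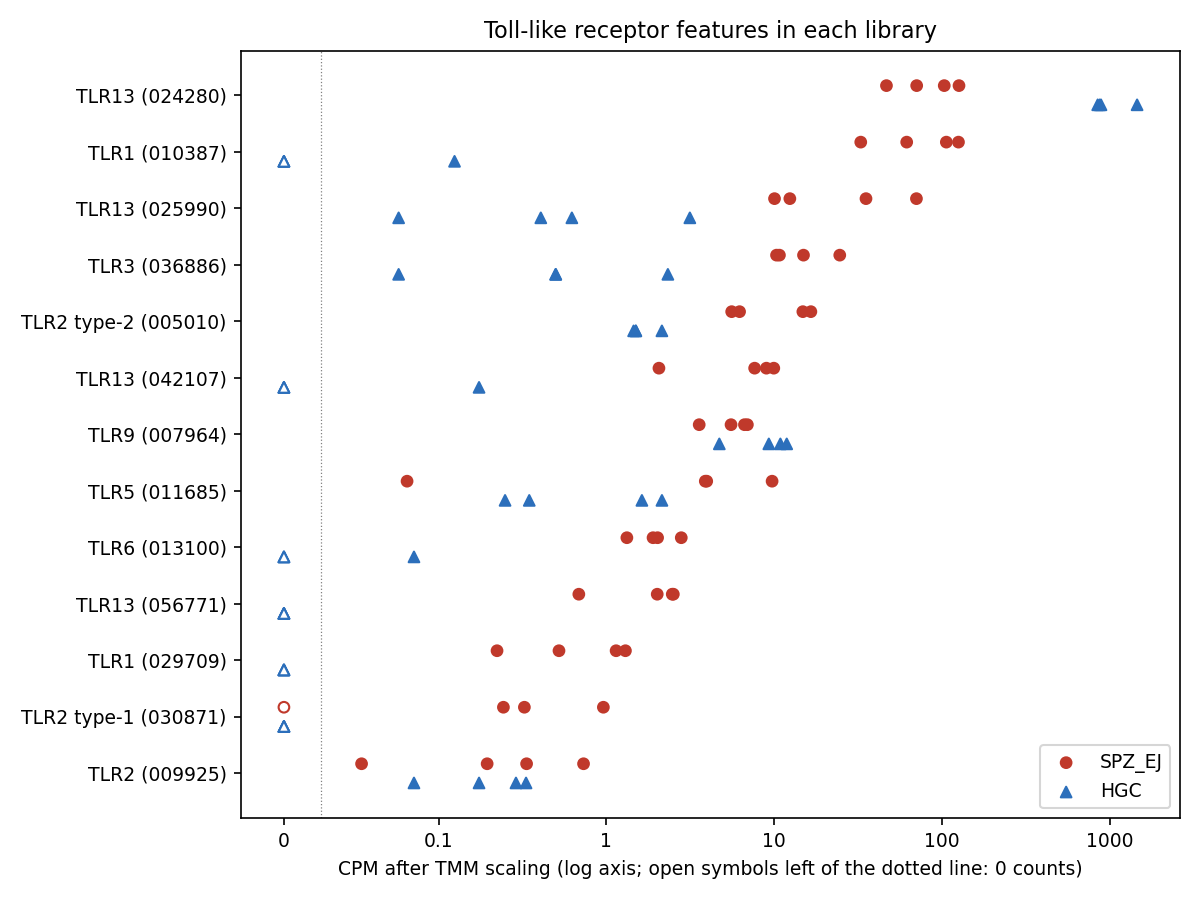
CPM after TMM scaling of the 13 TLR features (rows, by product name and the last digits of the identifier) on a log axis, with 1 point per library, SPZ_EJ as circles and HGC as triangles. Open symbols left of the dotted line are libraries with 0 counts. The top row, a TLR13 feature, has its HGC libraries at 845 to 1451 CPM, to the right of its SPZ_EJ libraries, whereas most other rows have SPZ_EJ on the right.

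Among the features named after cell surface receptors of the TLR1 subfamily, Saurata1B010387 (TLR1, *tlr1*) had the most counts in spermatozoa. It held 3046, 1927, 1103 and 717 counts in SPZ_EJ replicates 1 to 4, against 0, 0, 3 and 0 counts in HGC replicates 1 to 4. In CPM the SPZ_EJ libraries stood at 106, 125, 61.5 and 32.8, against 0.125 in HGC replicate 3, the only HGC library with counts. The transcript was thus present in all 4 sperm pools and at the limit of detection in the haploid germ cells. With 3 HGC counts in all, a fitted fold change depends on the prior count, and the ratio of the 2 groups was 1958 (exact 95% counting interval 669.6 to 9495, adjusted p = 2.22e-06).

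The other TLR1 feature, Saurata1B029709, was sparse, with 15, 20, 4 and 25 counts in SPZ_EJ and 0 counts in every HGC library. It averaged 0.797 ± 0.509 CPM in SPZ_EJ and, with the counts of these libraries pooled, was at least 18.4-fold above the floor in HGC. That floor is 0.0413 CPM, the level of 3 counts over the 4 HGC libraries, below which a count of 0 says nothing. The feature did not pass the filter, and an exact permutation test of the group means, two-sided, gave p = 0.0286, the smallest that 4 against 4 libraries allow. DESeq2, which tested it, called it higher (adjusted p = 0.000445), as it did 21.4% of protein_coding features, whereas edgeR without a filter did not (adjusted p = 0.0165). Left out one at a time, each of the HGC libraries and SPZ_EJ replicate 3 let it into the test, where it was called higher (adjusted p 0.00101 to 0.00678). With 0 HGC counts, the feature entered these fits on its SPZ_EJ counts alone, so they add no separate support.

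Saurata1B013100, named TLR6, the other receptor that pairs with TLR2 in mammals, had the same shape with fewer counts. SPZ_EJ libraries held 58, 43, 34 and 29 counts, against 1, 0, 0 and 0 in HGC, a ratio of 142 with a counting interval of 25.1 to 5634 (adjusted p = 0.000103). The 4 sperm pools lay close together, at 2.02, 2.79, 1.90 and 1.33 CPM.

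Among the TLR2 features, TLR2 type-2 (Saurata1B005010) carried most of the counts. It stood at 16.5, 14.8, 5.58 and 6.22 CPM in SPZ_EJ and at 1.5, 2.14, 1.5 and 1.45 CPM in HGC, so that all sperm pools lay above all HGC libraries, of which replicate 2 was the highest. The rise was the smallest of the 7 called (log2 fold change 2.71, SE 0.49, adjusted p = 0.000537). TLR2 type-1 (Saurata1B030871) had 7, 5, 0 and 21 counts in SPZ_EJ and none in HGC. It averaged 0.382 ± 0.409 CPM in SPZ_EJ, with SPZ_EJ replicate 3 also at 0 (exact permutation p = 0.143). With the counts of the SPZ_EJ libraries pooled, it was at least 9.51-fold above the HGC floor. The feature named plain TLR2 (Saurata1B009925) had 1, 3, 6 and 16 counts in SPZ_EJ against 1, 5, 8 and 3 in HGC, and the groups overlapped (exact permutation p = 0.6). Of the 3 features named TLR2, type-2 thus had the most counts in every library of both groups.

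TLR3, an endosomal receptor for double-stranded RNA in mammals, was called higher. Saurata1B036886 stood at 24.6, 14.9, 10.3 and 10.7 CPM in SPZ_EJ against 0.5, 0.0579, 0.498 and 2.33 CPM in HGC (log2 fold change 4.16, SE 0.82, adjusted p = 0.000877). HGC replicate 4, the highest of that group, remained below every sperm pool. The HGC spread of this feature was wide, from 1 count in replicate 2 to 40 counts in replicate 4.

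TLR9, an endosomal receptor for unmethylated CpG DNA, was tested and not called. Saurata1B007964 stood at 6.65, 3.57, 6.92 and 5.53 CPM in SPZ_EJ and at 9.29, 11.9, 10.9 and 4.71 CPM in HGC. HGC replicates 1, 2 and 3 lay above all sperm pools, and HGC replicate 4 lay among these pools. The log2 fold change was -0.70 (SE 0.41, adjusted p = 0.155) and its sign turned, to 0.10, when libraries were scaled by library size only. TLR9 was the only tested member other than the abundant TLR13 feature with a fitted level below HGC.

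TLR5, the flagellin receptor, was uneven between the sperm pools. Saurata1B011685 held 279, 1, 71 and 85 counts in SPZ_EJ against 30, 6, 6 and 28 in HGC, which corresponds to 9.71, 0.0650, 3.96 and 3.88 CPM in SPZ_EJ and 2.14, 0.347, 0.249 and 1.63 CPM in HGC. SPZ_EJ replicate 2, with its single count, fell below every HGC library, and the other sperm pools lay above all of them. The feature was not called (log2 fold change 2.03, SE 1.05, adjusted p = 0.104).

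The 4 features named TLR13 split in opposite directions. The abundant one, Saurata1B024280, held 2960, 1941, 1265 and 1020 counts in the SPZ_EJ libraries, against 20312, 14603, 20903 and 15213 counts in the HGC libraries. In CPM this was 103, 126, 70.6 and 46.6 in SPZ_EJ against 1451, 845, 868 and 884 in HGC, with no overlap. It alone among the TLR features was called lower, with a log2 fold change of -3.55 (SE 0.40, adjusted p = 1.93e-05). It remained well detected in spermatozoa, where it averaged 86.6 ± 35.1 CPM, against 1012 ± 293 CPM in HGC.

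The other 3 TLR13 features had few HGC counts, 67, 3 and 0 over the group, and were called higher in SPZ_EJ. Saurata1B025990, which the study's receptor list annotates as TLR22, a fish TLR, stood at 70.3, 35.2, 10.04 and 12.4 CPM in SPZ_EJ and at 3.14, 0.0579, 0.623 and 0.407 CPM in HGC (log2 fold change 4.95, SE 1.01, adjusted p = 0.00114). Saurata1B042107 had 258, 153, 137 and 45 counts in SPZ_EJ and 0, 0, 0 and 3 in HGC, a ratio of 171 with a counting interval of 58.2 to 831 (adjusted p = 0.000116). Saurata1B056771 had 72, 38, 36 and 15 counts in SPZ_EJ and 0 in every HGC library, at least 46.4-fold higher (adjusted p = 0.000275). Features that share a product name may be near-identical copies, among which the read assignment can split counts, and the libraries carry no strand. The values of single TLR1, TLR2 and TLR13 features are uncertain to that extent, and no sequence was at hand to measure how alike they are.

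**Figure D2:**
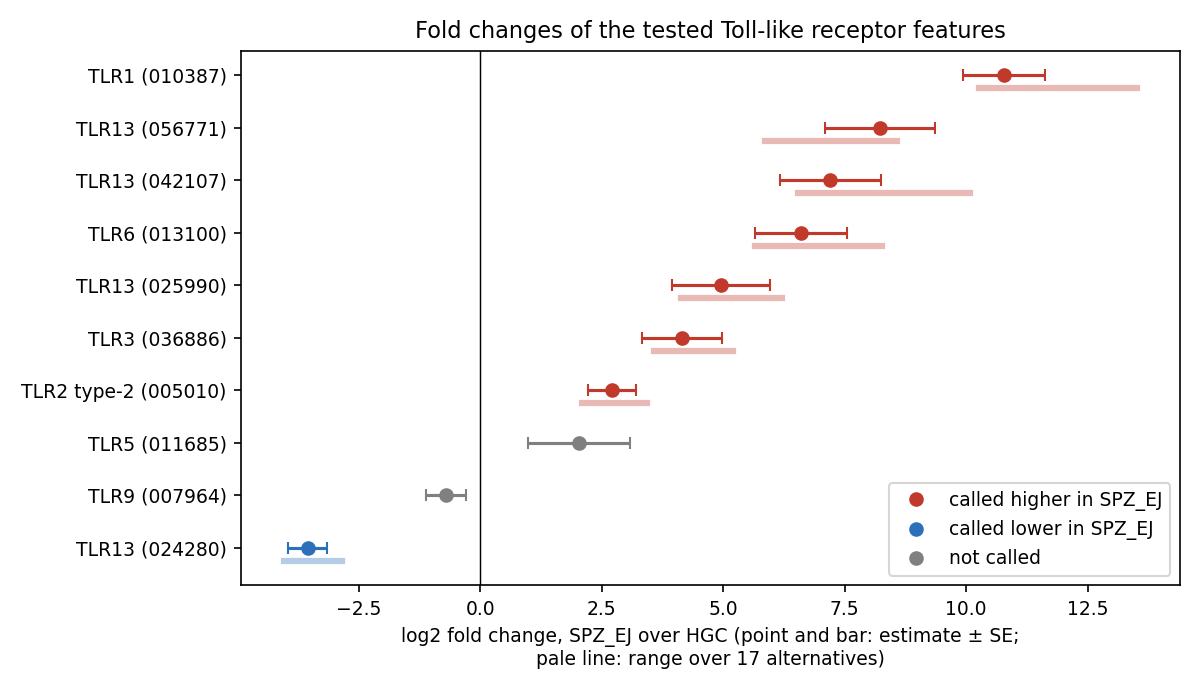
Log2 fold change of SPZ_EJ over HGC for the 10 tested TLR features. Points and bars are the estimate ± SE from edgeR, and the pale line under each called feature is the range of its estimate over 17 alternative fits. TLR1 (Saurata1B010387) is at 10.78, a fitted value that rests on 3 HGC counts, and the abundant TLR13 feature, at -3.55, is the only one called below 0.

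All 8 calls held in each of 17 alternative fits, which were other tools, scalings and filters, the replicate block and the omission of each library. The log2 fold change of TLR2 type-2 ranged from 2.10 to 3.44 over them, that of TLR3 from 3.58 to 5.21 and that of the abundant TLR13 feature from -4.04 to -2.84. The largest adjusted p among them was 0.00844, for TLR2 type-2.

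The make-up of the TLR transcripts differed between the cell types, with the abundant TLR13 feature lower and 7 other features higher in SPZ_EJ. The abundant TLR13 feature made up 29.3%, 37.4%, 39.0% and 37.3% of the TLR counts in SPZ_EJ replicates 1 to 4, against 98.9%, 98.3%, 98.4% and 98.8% in HGC. Among TLR13 counts alone its share was 55.7% to 78.2% in SPZ_EJ and at least 99.8% in HGC. These are shares of counts within a library, which do not depend on the scaling but are not corrected for transcript length.

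**Figure D3:**
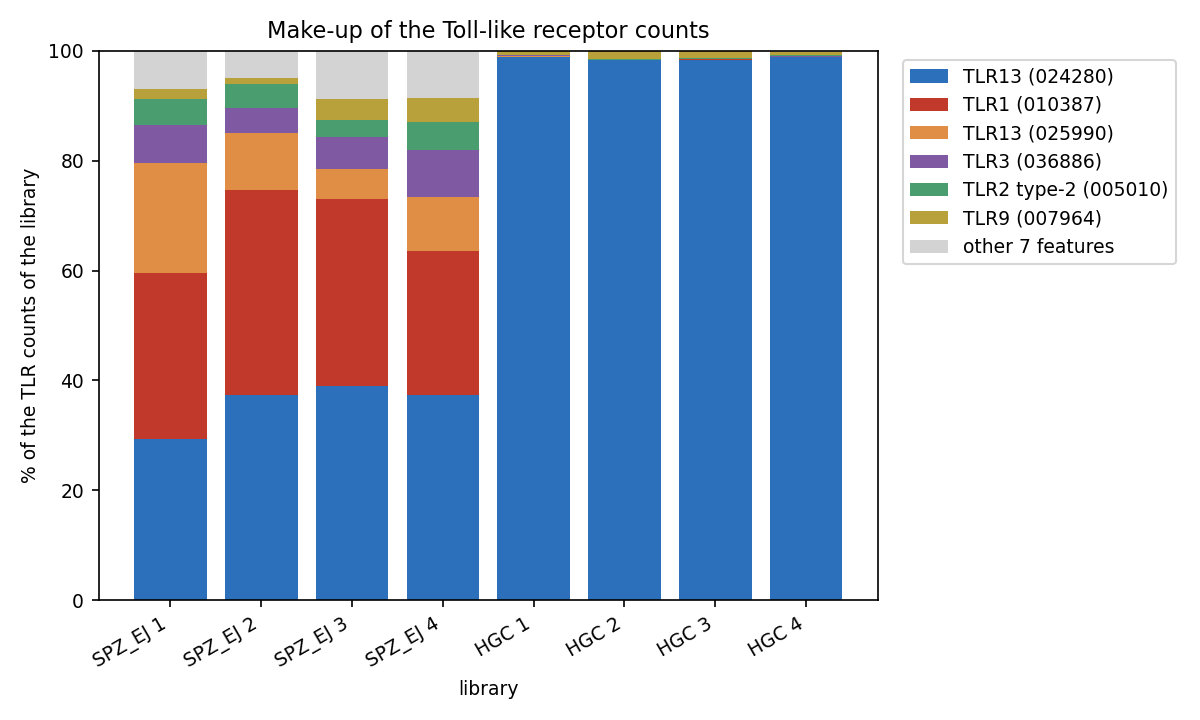
Share of the TLR counts of each library (bars, SPZ_EJ left and HGC right) that each of the 6 leading features and the other 7 together took, in percent. The abundant TLR13 feature, at the bottom of each bar, takes 29.3% to 39.0% in SPZ_EJ and 98.3% to 98.9% in HGC.

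The sum over the family therefore ran against most of its members. Summed TLR levels were 351, 337, 181 and 125 CPM in SPZ_EJ and 1468, 860, 882 and 895 CPM in HGC, a ratio of 0.242 between the group means. Without Saurata1B024280, an omission chosen after the values were seen, the sums were 248, 211, 111 and 78.4 CPM in SPZ_EJ and 16.7, 14.8, 14.2 and 10.9 CPM in HGC, a ratio of 11.5. Of those remaining counts, TLR9 alone made up 55.6%, 80.4%, 76.6% and 43.3% in HGC but 1.69% to 7.05% in SPZ_EJ. The TLR counts of the haploid germ cells thus came almost wholly from 1 TLR13 feature and, far behind it, from TLR9.

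The sperm pools differed from each other along the family. Each of the 7 features called higher was highest in SPZ_EJ replicate 1, for 4 features, or replicate 2, for 3, and lowest in replicate 3, for 3 features, or replicate 4, for 4. The highest pool exceeded the lowest 2.11-fold for TLR6, 2.38-fold for TLR3, 2.96-fold for TLR2 type-2, 3.66-fold for Saurata1B056771, 3.82-fold for *tlr1*, 4.83-fold for Saurata1B042107 and 7.0-fold for Saurata1B025990. With scaling by library size only, replicate 1 was highest for all 7 features, and replicates 3 and 4 still held every lowest value. The order was not particular to the TLRs. Summed lists for adaptors, inhibitors, leukocyte genes and the interleukin-1 receptor family, described below, were also highest in replicate 1 and lowest in replicate 4. So were the list for folding and transport and that for NF-kB and interferon regulatory factors. The lists for receptor-proximal kinases and ubiquitin ligases and for TAK1 and IKK were highest in replicate 1 and lowest in replicate 3. The erythrocyte list was highest in replicate 1 and lowest in replicate 2. The lists for meiotic cells and spermatids, testis somatic cells and intracellular pattern recognition receptors were lowest in replicate 1. The share over all features was not tested. The abundant TLR13 feature, which was lower in SPZ_EJ, also had its highest sperm level in replicate 2 and its lowest in replicate 4.

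Read against Saurata1B024280 within the same library, other TLR features kept unequal proportions. For every 100 counts of that feature, *tlr1* had 103, 99.3, 87.2 and 70.3 counts in SPZ_EJ replicates 1 to 4, Saurata1B025990 had 68.3, 27.9, 14.2 and 26.6, and TLR6 had 1.96, 2.22, 2.69 and 2.84. The proportion of *tlr1* varied less between pools than that of Saurata1B025990, which was highest in replicate 1. None of these exceeded 0.217 counts per 100 in an HGC library.

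**Figure D4:**
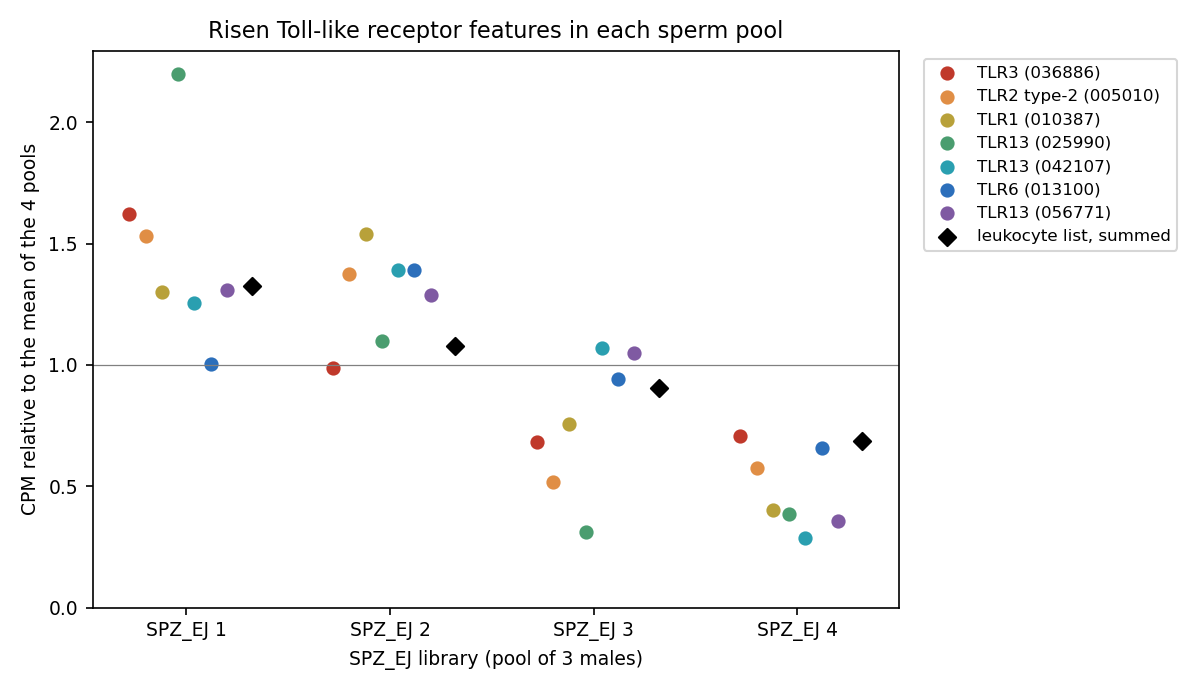
CPM of the 7 TLR features called higher, and of the summed leukocyte marker list, in each SPZ_EJ library, divided by the mean over the 4 SPZ_EJ libraries. All 7 features are lowest in replicate 3 or 4, and the black diamonds of the leukocyte list are highest in replicate 1 and lowest in replicate 4.

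Leukocyte markers moved in the same direction as these receptors. Of 34 features on a list of leukocyte genes, 23 were called higher in SPZ_EJ, 1 was called lower, 2 were not called and 8 were not tested, against 23.9% higher and 31.9% lower over tested protein_coding features. Many of the 23 had few HGC counts and passed the filter on their SPZ_EJ counts, so these counts describe the list only. The summed level of the list was 3364, 2740, 2301 and 1748 CPM in SPZ_EJ and 147, 68.8, 146 and 267 CPM in HGC, a ratio of 16.2. The feature called lower, perforin-1 (Saurata1B051451), which was singled out after its values were seen, stood at 0.870, 1.88, 3.85 and 4.57 CPM in SPZ_EJ and 12.8, 13.4, 49.3 and 165 CPM in HGC, which is the larger part of the summed level in HGC replicate 4 and a smaller part in the other HGC libraries. Named by mean CPM were coronin-1A (Saurata1B024622), plastin-2 (Saurata1B041593) and macrophage-expressed gene 1 (Saurata1B033579), which averaged 696, 445 and 297 CPM in SPZ_EJ and 36.4, 5.25 and 6.99 CPM in HGC. At 0 in every SPZ_EJ library were a granzyme B(G,H) feature and a minor receptor-type tyrosine phosphatase C feature, and at 0 in every HGC library the same granzyme feature, a granzyme B and a perforin-1 feature. The study's methods state that ribosomal RNA peaks were looked for in SPZ_EJ as a sign of other cells and were not seen. Its results call these ribosomal RNAs strongly reduced. Together with immunofluorescence microscopy, the study takes this to mean that non-sperm cells were almost absent. The part of leukocyte RNA in the TLR levels was not tested.

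Counted against that list, whose HGC counts include the perforin-1 feature Saurata1B051451, the proportion differed between receptor features and between libraries. TLR features other than Saurata1B024280 had 73.8, 76.9, 48.0 and 44.9 counts per 1000 counts of the leukocyte list in SPZ_EJ and 114, 215, 97.5 and 40.7 in HGC. Of these, TLR9, which was not called, made up 63.2, 173, 74.7 and 17.6 in HGC, against 1.98, 1.3, 3.01 and 3.16 in SPZ_EJ. The HGC values thus do not describe the features called higher alone. Whether those features kept a fixed proportion without TLR9 and this perforin-1 feature was not tested. The counts of *tlr1* were 31.5, 45.7, 26.7 and 18.7 per 1000 in SPZ_EJ. In HGC, *tlr1* had 0.856 per 1000 in replicate 3 and 0 in the other libraries. Saurata1B024280 had 26.7 to 46.0 per 1000 in SPZ_EJ and 3310 to 12300 per 1000 in HGC. In every HGC library that TLR13 feature alone outnumbered the whole leukocyte list.

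The other marker lists differed. A list for meiotic cells and spermatids, matched by product name, held 34 features. Many of them were named axonemal dynein heavy chains and few after the synaptonemal complex. The list thus describes genes of the flagellar axoneme more than meiotic genes. The paper also reports many axoneme transcripts as downregulated in SPZ_EJ. In SPZ_EJ 22 were called lower, 1 higher, 8 were not called and 3 were not tested. Over tested protein_coding features the shares were 31.9% lower and 23.9% higher. Summed levels of the list were 356 to 889 CPM in SPZ_EJ and 9762 to 14510 CPM in HGC, a ratio of 0.0523. The abundant TLR13 feature lay on the same side. Of 13 features on a list drawn up for testis somatic cells, 7 were tested, of which 2 were called higher and 2 lower, near those shares. The list includes LH receptors, which the paper also places in teleost spermatids, so it does not describe somatic cells alone. It also includes doublesex- and mab-3-related factors. Features named factor 3 were among those called higher (Saurata1B010424) and lower (Saurata1B041174). Sums over the list were 24.1 to 63.0 CPM in SPZ_EJ and 234 to 317 CPM in HGC. In HGC they were carried by the collagen alpha-1(I) chain feature Saurata1B012212, singled out after its values were seen, with a mean of 182 CPM. Another feature of that name, Saurata1B057058, was called higher, at 2.95 CPM in SPZ_EJ and 0.305 CPM in HGC (log2 fold change 3.22, adjusted p = 0.00982). Of 10 erythrocyte features, 3 of the 4 tested were called lower, with sums of 9.55 to 26.5 CPM in SPZ_EJ and 23.2 to 682 CPM in HGC, which overlapped and were highest in HGC replicate 4. The part of other testis cells in the HGC values was not tested.

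Downstream of the receptors, 50 features were assembled from product names, and 42 of them were tested. In SPZ_EJ 21 were called higher and 4 lower, with a median log2 fold change of 1.07. Some of those called higher had few HGC counts and passed the filter on their SPZ_EJ counts. Over tested protein_coding features the shares were 23.9% higher and 31.9% lower, which is also the background for the groups of the pathway that follow.

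Of 4 adaptor features, 3 were called higher and 1 was not called. MyD88 (Saurata1B050946), the adaptor of most TLRs, stood at 140, 107, 84.3 and 57.5 CPM in SPZ_EJ and at 2.79, 2.26, 2.45 and 2.97 CPM in HGC (log2 fold change 5.21, SE 0.37, adjusted p = 1.54e-06). MyD88 was highest in SPZ_EJ replicate 1 and *tlr1* in replicate 2, and both were lowest in replicate 4. TICAM1 (Saurata1B031213), the adaptor of TLR3 also known as TRIF, averaged 5.75 ± 1.03 CPM in SPZ_EJ and had 1 count over all HGC libraries, a ratio of 429 with a counting interval of 76.6 to 16970 (adjusted p = 1.15e-05). Phosphoinositide 3-kinase adapter 1 (Saurata1B036163), which links TLRs to phosphoinositide 3-kinase, averaged 23.5 ± 9.42 CPM in SPZ_EJ and 2.56 ± 1.60 CPM in HGC (log2 fold change 3.21, SE 0.49, adjusted p = 0.000163).

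Both features for folding and transport were well expressed and moved apart. Endoplasmin (Saurata1B031344), the chaperone of the endoplasmic reticulum that folds TLRs, stood at 253 ± 85.8 CPM in SPZ_EJ and 50.02 ± 8.90 CPM in HGC (log2 fold change 2.34, SE 0.32, adjusted p = 7.79e-05). Transmembrane emp24 domain-containing 7 (Saurata1B049801), a cargo receptor of the secretory pathway, stood at 77.1 ± 23.3 CPM in SPZ_EJ and 177 ± 49.8 CPM in HGC (log2 fold change -1.20, SE 0.32, adjusted p = 0.00583). This call was lost at the stricter fold threshold and in 8 alternative fits, among them scaling by library size only (log2 fold change -0.46, adjusted p = 0.296).

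Of 10 features of receptor-proximal kinases and ubiquitin ligases, 2 were called higher, 2 lower, 3 not called and 3 not tested. Their median log2 fold change was -1.32, and the shares called were near that background. The only kinase among them, IRAK1 (Saurata1B056570), was not called (log2 fold change -1.45, adjusted p = 0.0133). TNF receptor-associated factor 6 (TRAF6, Saurata1B033037) was not called (log2 fold change -0.95, adjusted p = 0.072). Of the features named TRAF3, Saurata1B054699 was called higher (log2 fold change 1.24, adjusted p = 0.00478) and Saurata1B057049 was not tested. Pellino homologs are ubiquitin ligases that act on IRAK kinases. Of the features named pellino 2, Saurata1B045172 was not tested. Among features named pellino 1, Saurata1B012942 was not called (log2 fold change -1.32, adjusted p = 0.044). Saurata1B049289, with 28 counts over the SPZ_EJ libraries and 3 over the HGC libraries, was not tested. The other 2 were called lower. Saurata1B054626 stood at 8.10 ± 0.722 CPM in SPZ_EJ and 199 ± 21.5 CPM in HGC (log2 fold change -4.62, SE 0.27, adjusted p = 1.44e-06), and Saurata1B013397 at 3.5 ± 1.51 CPM in SPZ_EJ and 57.8 ± 29.2 CPM in HGC (log2 fold change -4.05, SE 0.46, adjusted p = 2.16e-05). Pellino 2 (Saurata1B049520) stood at 75.2 ± 19.4 CPM in SPZ_EJ and 28.1 ± 7.86 CPM in HGC (log2 fold change 1.42, SE 0.31, adjusted p = 0.00183), a call lost without HGC replicate 1, 2 or 3 (adjusted p 0.0143 to 0.0249) and without the filter (adjusted p = 0.175).

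The kinase complexes of TAK1 and IKK carry TLR signals to NF-kB. Of 12 features, 1 was called higher, 10 were not called and 1 was not tested. None was named IKK beta, whose gene *ikbkb* the paper counts among the most upregulated of its PDGF pathway in SPZ_EJ. The list therefore does not describe IKK as a whole. TBK1 (Saurata1B009149), the kinase of the TRIF branch, stood at 63.5 ± 23.7 CPM in SPZ_EJ and 65.4 ± 16 CPM in HGC (log2 fold change -0.04, SE 0.32, adjusted p = 0.914), with the sign depending on the scaling. TAB3 (Saurata1B034278), a subunit of the TAK1 complex, averaged 20.3 CPM in SPZ_EJ and 25.6 CPM in HGC (log2 fold change -0.34, SE 0.33, adjusted p = 0.378), again with a sign that turned under other scalings. IKK alpha (Saurata1B009414) stood at 11.4 ± 1.64 CPM in SPZ_EJ and 19.4 ± 5.11 CPM in HGC (log2 fold change -0.78, SE 0.31, adjusted p = 0.043). Saurata1B026159, also named IKK alpha, was not called either (log2 fold change -0.24, adjusted p = 0.525), and Saurata1B000974 of that name was not tested. A miss of the threshold does not show equal levels.

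Of 15 features of NF-kB and interferon regulatory factors, 9 were called higher, 2 not called and 4 not tested, with a median log2 fold change of 2.89. Proto-oncogene c-Rel (Saurata1B047236), an NF-kB subunit of lymphoid and myeloid cells in mammals, stood at 218, 158, 96.9 and 106 CPM in SPZ_EJ and at 8.93, 2.61, 1.08 and 8.08 CPM in HGC (log2 fold change 4.81, SE 0.66, adjusted p = 7.67e-05). NF-kB inhibitor alpha (Saurata1B030054), a target and brake of NF-kB, stood at 88.2 ± 22.4 CPM in SPZ_EJ and 6.23 ± 6.76 CPM in HGC (log2 fold change 3.83, SE 0.96, adjusted p = 0.00419). The p100 precursor (Saurata1B012044) stood at 21.9 ± 3.44 CPM in SPZ_EJ and 37.6 ± 17.3 CPM in HGC and was not called (log2 fold change -0.78, SE 0.39, adjusted p = 0.0942), but without HGC replicate 2 it was called lower (log2 fold change -1.26, adjusted p = 0.00819). The remaining called features were named p65, IRF5, IRF7, IRF8 in 2 copies, a further inhibitor alpha and inhibitor epsilon.

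Of 7 features of inhibitors of the pathway, 5 were called higher, 1 lower and 1 not called. TNF alpha-induced 3 (Saurata1B013504), the ubiquitin-editing enzyme A20, stood at 50.8 ± 16.04 CPM in SPZ_EJ and 3.98 ± 1.97 CPM in HGC (log2 fold change 3.68, SE 0.43, adjusted p = 2.77e-05). CYLD, a deubiquitinase, had 2 copies. Saurata1B019917 was called lower, with 19.4 ± 2.32 CPM in SPZ_EJ and 201.8 ± 51.3 CPM in HGC (log2 fold change -3.38, SE 0.29, adjusted p = 4.04e-06), and Saurata1B034954, with 59.9 ± 10.6 CPM in SPZ_EJ and 92.1 ± 20.8 CPM in HGC, was not called (log2 fold change -0.62, SE 0.27, adjusted p = 0.0584). The other 4 called higher were 2 copies each of Toll-interacting protein and of suppressor of cytokine signaling 1.

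**Figure D5:**
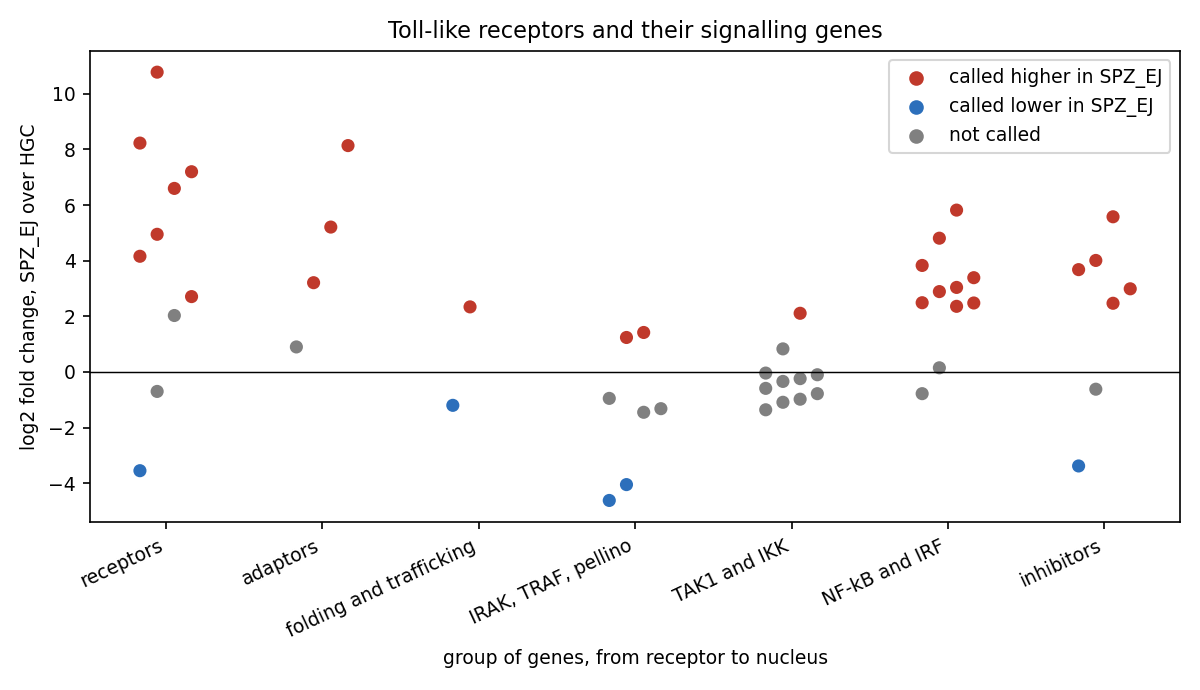
Log2 fold change of SPZ_EJ over HGC of each tested feature, for the TLRs and for 6 groups of signalling genes, coloured by call. Of the tested features, 9 of 11 in the NF-kB and interferon regulatory factor group are called higher. In the TAK1 and IKK group, which holds no IKK beta feature, 10 of 11 are not called.

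Receptors related to the TLRs were read from the same fit. Of 14 features of the interleukin-1 receptor family, which share the TIR domain, 7 were tested and 4 of them called higher, against 23.9% of tested protein_coding features. These 4 would not have passed the filter on their HGC counts, so the count describes the list only. Of the tested features not called, Saurata1B006218 is named interleukin-1 receptor type 1 (log2 fold change 4.32, adjusted p = 0.0116). Saurata1B044223, also not called, is named interleukin-1 receptor accessory (log2 fold change 2.14, adjusted p = 0.08). Interleukin-1 receptor accessory (Saurata1B033241), the shared signalling chain, stood at 163, 76.0, 36.9 and 37.6 CPM in SPZ_EJ and at 1.5, 0.984, 0.374 and 1.98 CPM in HGC (log2 fold change 6.03, SE 0.69, adjusted p = 2.31e-05). Its pools had the order seen in most TLR features, with replicates 1 and 2 above replicates 3 and 4. Interleukin-1 receptor type 1 (Saurata1B042753), which binds the cytokine, averaged 52.5 ± 20.7 CPM in SPZ_EJ and 0.149 ± 0.252 CPM in HGC, where all counts lay in replicates 1 and 4 (log2 fold change 8.46, SE 0.92, adjusted p = 1.66e-05). Interleukin-1 receptor type 2 (Saurata1B034053), a decoy receptor, averaged 33.2 ± 18.01 CPM in SPZ_EJ and 1.51 ± 1.64 CPM in HGC (log2 fold change 4.48, SE 0.79, adjusted p = 0.000434).

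Of 69 features named after intracellular pattern recognition receptors, 30 were tested, of which 22 were called higher and 2 lower, against the same 23.9% and 31.9%. Most of the 22 had few HGC counts and passed the filter on their SPZ_EJ counts, so these counts describe the list only. The feature with the highest mean CPM, NLRC3 (Saurata1B028483), stood at 61.5, 599, 277 and 222 CPM in SPZ_EJ and at 641, 631, 720 and 546 CPM in HGC, and was not called (log2 fold change -1.13, SE 0.53, adjusted p = 0.0753). Its sperm pools had another order than those of the TLRs, with replicate 1 the lowest. It was called lower without SPZ_EJ replicate 2 (log2 fold change -1.81, adjusted p = 0.00572), without the filter (-1.88, adjusted p = 0.000381) and with limma-voom (-1.28, adjusted p = 0.00336). The NLRC3 feature Saurata1B009518 averaged 37.9 ± 11.8 CPM in SPZ_EJ and 0.768 ± 0.606 CPM in HGC (log2 fold change 5.62, SE 0.58, adjusted p = 1.19e-05), and Saurata1B055896, also named NLRC3, 24.98 ± 8.15 CPM in SPZ_EJ and 0.426 ± 0.301 CPM in HGC (log2 fold change 5.90, SE 0.55, adjusted p = 6.29e-06). The NLRC3 feature called lower was Saurata1B038220, singled out after its values were seen (log2 fold change -5.92, SE 1.04, adjusted p = 0.00043).

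By the likeness of their profiles over the 8 libraries, the named protein_coding features nearest to the summed TLRs were transcription cofactor vestigial 4 (distance 0.0212), death domain-associated 6 (0.0376), unconventional myosin-IXb (0.0395), IQGAP1 (0.0399) and an Arf-GAP with coiled-coil, ANK repeat and PH domains (0.0451). The measure is the Euclidean distance between the shares of CPM that each feature has in the 8 libraries, over 9833 features, and the summed profile is mostly that of Saurata1B024280. For the sum without that feature the nearest were macrophage colony-stimulating factor 1 receptor 1 (0.0333), which is also on the leukocyte list, calreticulin (0.0353), filamin-A (0.0435), forkhead box O3 (0.0449) and a kinase C alpha type (0.0451). This is a description over 8 libraries of 2 groups.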

How the data were processed

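RNA-seq was done on 4 SPZ_EJ and 4 HGC libraries made by oligo-dT priming and amplification, without strand or molecular identifiers. The authors mapped reads with STAR 2.5.3a, estimated RSEM 1.3.0 expected counts per gene against their re-annotated genome, and deposited them as whole numbers without normalization. The planned test for counts was therefore used without rounding.

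Features were filtered with filterByExpr, scaled by TMM and tested by group with edgeR 4.0.16 (glmQLFit and glmQLFTest) over the whole table. Standard errors were taken as log2 fold change over the root of F. Counting intervals and floors cover counting error only. Each pool counted as 1 replicate; the sources do not say whether both groups shared males. Features outside the filter were tested by exact permutation.

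All TLR features were named. From each signalling and related receptor list and the leukocyte list, up to 3 tested features of highest mean CPM were named. No single feature was named from the erythrocyte list or that for meiotic cells and spermatids. Features of the testis somatic list were named outside this rule. So were further pellino, IRAK, TRAF, IKK alpha and interleukin-1 receptor features. The remaining called NF-kB features and inhibitors were named after their values were seen. The members and lists were chosen with earlier results of these data known. Identifiers were tied to the study's receptor symbols where DESeq2 values equalled the printed ones, so those symbols carry no independent check. Coordinates and sequences were not used here.

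Alternatives were DESeq2 1.42.0, limma-voom (limma 3.58.1) with quality weights, 3 other scalings, 2 other filters, stricter or looser thresholds, fits without each library or without the 20 most abundant features, and the replicate block. Counts were also simulated for 21375 features from their means over both groups, with changes planted in a small part of them. The fit recovered 67% of planted 16-fold and 5% of planted 4-fold changes, with 2 false calls among 20231 unchanged features. Far more features were called in the real data, which alters the adjusted p, so these rates do not give the power there. Software was R 4.3.3 and Python 3.11.15 with pandas 2.3.3, scipy 1.17.1, numpy 2.4.6 and, for plots, matplotlib 3.10.9.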

Additional observations from a re-analysis of the deposited data

Results flagged for a closer look

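In 3 of 25 groups of 4 libraries examined, 1 library stood apart by Dixon's ratio, a criterion that chance meets in about 1 in 20 groups. TLR2 type-2 (Saurata1B005010) stood at 2.14 CPM in HGC replicate 2, against 1.45 to 1.5 CPM in the other HGC libraries. The abundant TLR13 feature (Saurata1B024280) stood at 1450 CPM in HGC replicate 1, against 845 to 884 CPM in the others, and the summed TLR level, which it dominates, at 1470 CPM in the same library, against 860 to 895 CPM. Both features kept their calls without these libraries.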

How the results depend on the processing

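All 8 TLR calls held in the 17 alternative fits, and 7 or 8 TLR features were called higher and 1 lower without each library. Signalling features called higher numbered 15 to 20, and lower 3 to 5, without each library. Signalling features called lower, 4 with edgeR, were 8 with limma-voom and 8 at an adjusted p below 0.05. The ratio of summed TLR levels, 0.242, was 0.404 with library size only, 0.209 to 0.283 without each library and 11.5 without Saurata1B024280, an alternative chosen after seeing the data. The median over all tested features was 1.19 on the log2 scale with library size only, against 0.45 with TMM. Under it the log2 fold change changed sign for TLR9 (Saurata1B007964, 0.10), TBK1 (0.74), TAB3 (0.49), p100 (0.01) and the CYLD feature Saurata1B034954 (0.14), none of them called. That of TBK1 was also 0.06 with DESeq2, 0.14 with DESeq2 size factors, 0.30 with the upper quartile, 0.04 without the 20 most abundant features, and -0.47 to 0.23 without each library (0.14 and 0.23 without SPZ_EJ replicates 3 and 4), and that of TAB3 was 0.01 with the upper quartile. The cause was not tested.

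For features outside the filter, the difference of mean CPM without each library ranged from -0.0287 (without SPZ_EJ replicate 4, exact permutation p = 0.8) to 0.203 for Saurata1B009925, from 0.629 to 0.988 for Saurata1B029709, whose p was 0.0571 without an HGC library although the groups still did not overlap, and from 0.189 to 0.509 for Saurata1B030871, whose p was 0.0286 without SPZ_EJ replicate 3. With 3 against 4 libraries, 0.0286 is the smallest 2-sided p reached.

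With the replicate number as a block (replicate block), 7 TLR features were called higher and 1 lower, and 19 and 4 signalling features. Deviations of same-numbered libraries correlated at 0.117, 0.0155, 0.0125 and 0.0818, and those of other-numbered libraries at -0.148 to 0.155. Such correlations cannot show whether the groups shared males. The main fit did not use the numbers to pair the samples. Features with few counts, among them 3 TLR features, limit what can be said at this depth.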

Other observations

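A feature outside the name rule belongs beside these receptors. Saurata1B046185 has the product name of an uncharacterized protein, and the study's receptor list ties it to *tlr7*, an endosomal receptor for single-stranded RNA in mammals. It held 649, 106, 233 and 180 counts in SPZ_EJ and 2, 0, 0 and 1 in HGC, so that all sperm pools lay above all HGC libraries. It was chosen after its values were seen, and of the 6 TLR entries of that list it is the only one that is not among the 13 features. A selection by product name can therefore miss TLR genes, and the number of others missed was not tested.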
